A study of Homo sapiens with 18 samples.

Results

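The 6 H1 libraries described here are 3 of organoids given chronic dopamine (libraries 1 to 3) and 3 of organoids given acute dopamine (libraries 4 to 6), out of 18 libraries in the series. They were chosen by their labels for cell line and treatment. No vehicle library entered the test. The series is bulk RNA-seq of cerebral organoids, which are neural tissues grown in suspension from pluripotent stem cells, here by a ventral forebrain protocol that adds the Hedgehog ligand SHH and the Hedgehog pathway agonist purmorphamine. H1 and H9 are established human embryonic stem cell lines, and both were treated in the same way at day 83. Organoids of both H1 groups received 1 µM dopamine for 1 hour in 100 µM ascorbic acid just before they were frozen. In the week before that, the chronic organoids were given dopamine every day, whereas the acute organoids were given ascorbic acid alone. The comparison therefore asks what a week of earlier doses adds to the RNA after the same final dose. Nothing in the labels states that libraries with the same treatment were grown as separate cultures. The p-values below thus reflect variation among libraries, which need not equal the variation among separate cultures.

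Dopamine is a catecholamine transmitter that acts through G protein-coupled receptors of the D1 and D2 classes, which raise or lower cyclic AMP, and it oxidises readily. In the forebrain the ventral wall gives rise to GABAergic neurons of the striatum and cortex, and the dorsal wall gives rise to the glutamatergic neurons of the cortex. Pigment cells of the eye and of the neural crest make melanin from tyrosine, a precursor that dopamine neurons also use.

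The 6 libraries held 13647204 to 21691180 counts. No pair agreed within sampling noise, and the closest pair, libraries 2 and 3, had a chi-square of 2.63 per gene. Library 5 stood apart, with a correlation of log2 CPM (counts scaled to library size) of 0.9859 to 0.9894 to the other 5, against 0.9899 or more among those. NKX2-1, which marks the most ventral forebrain, lay at 0 to 1.03 CPM in the 6 libraries. Blood genes summed to 701 counts in library 4 and to 4 to 55 counts in the other 5, with HBB alone at 243 counts in library 4. TTR, which marks choroid plexus, was high in libraries 1, 3 and 4 (31.4, 126 and 82.4 CPM) and at 0.433 to 1.09 CPM in libraries 2, 5 and 6, so it did not follow the groups. All levels below are CPM scaled over the 17 deep libraries. Libraries 7 and 8 are the deep H1 vehicle controls, given for reference, and library 9, the third, held 43284 counts and is left out.

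Few genes separated chronic from acute dopamine. Of 15466 genes tested, 6 were higher and 2 lower in chronic organoids by edgeR's quasi-likelihood test at a Benjamini-Hochberg adjusted p below 0.05, which is 0.0388% and 0.0129% of genes and 0.0517% in either direction. Among the genes that rose were the pigment cell genes TYRP1, PMEL and DCT, and LUZP2 and TSHZ2. The genes that fell were KIAA0408 and SMIM11B. At an unadjusted p under 0.05, 883 genes (5.71%) were higher and 604 (3.91%) lower. DESeq2 on the same counts called 84 genes higher (0.543%) and 30 lower (0.194%), 0.737% in either direction, with the 8 genes called by edgeR among them. Leaving out any 1 of the 6 libraries left 0 to 3 genes higher and 0 to 1 lower, so every one of the 6 libraries was needed for the full set of calls. KIAA0408 still passed in 3 of these 6 fits, DCT and LUZP2 in 1 each, and the other called genes in 0, with adjusted p up to 0.379.

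**Figure D1:**
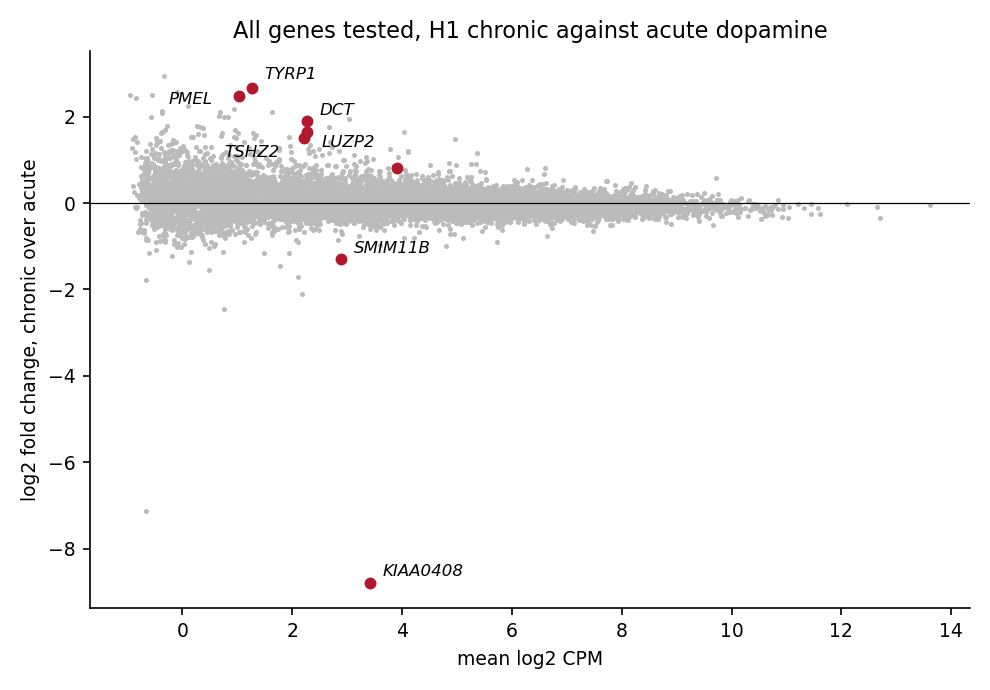
Log2 fold change of chronic over acute dopamine against mean log2 CPM for the 15466 genes tested in H1 organoids. Red points are the 8 genes past an adjusted p of 0.05, and grey points are all others; KIAA0408 lies far below the rest at -8.78.

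Among the 6 genes called higher, TYRP1, PMEL and DCT, which encode proteins of melanin synthesis or the melanosome, had the largest log2 values. By p, LUZP2 and TSHZ2 came before TYRP1 and PMEL. TYRP1, PMEL and TYR entered the test through the chronic libraries, where they were high, as set out below. DCT met the filter in both groups. DCT converts dopachrome in the eumelanin pathway, TYRP1 is the related melanosomal protein, PMEL forms the fibrils on which melanin is laid down, and TYR is the tyrosinase that starts the pathway. DCT, TYRP1 and TYR are textbook targets of the pigment cell factor MITF through the M-box, an E-box with the letters TCATGTG. Their promoters are therefore shown here, from RefSeq on GRCh38.p14, as 250 bases before and 50 after the start of the gene, 5′ to 3′ on the gene's strand. For TYRP1 the RefSeq start, at 12693385, is not the GENCODE start given with its level below, so its distances count from the RefSeq start. Capitals mark the 6 letters CATGTG on either strand, which read CACATG where they lie on the other strand. The DCT window is chr13:94479633-94479932 on the minus strand, the TYRP1 window chr9:12693135-12693434 on the plus strand, and the TYR window chr11:89177625-89177924 on the plus strand. PMEL was not matched.

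DCT: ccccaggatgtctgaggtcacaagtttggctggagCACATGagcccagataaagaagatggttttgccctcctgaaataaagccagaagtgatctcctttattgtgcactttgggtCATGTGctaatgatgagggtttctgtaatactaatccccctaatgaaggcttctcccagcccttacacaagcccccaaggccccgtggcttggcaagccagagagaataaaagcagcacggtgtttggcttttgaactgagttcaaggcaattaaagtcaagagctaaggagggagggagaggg
TYRP1: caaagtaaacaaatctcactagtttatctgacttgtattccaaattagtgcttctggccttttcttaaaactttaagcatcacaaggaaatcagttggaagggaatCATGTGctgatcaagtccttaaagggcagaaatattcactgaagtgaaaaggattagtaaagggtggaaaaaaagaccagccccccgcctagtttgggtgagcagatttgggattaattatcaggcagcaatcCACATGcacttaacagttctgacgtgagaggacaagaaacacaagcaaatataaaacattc
TYR: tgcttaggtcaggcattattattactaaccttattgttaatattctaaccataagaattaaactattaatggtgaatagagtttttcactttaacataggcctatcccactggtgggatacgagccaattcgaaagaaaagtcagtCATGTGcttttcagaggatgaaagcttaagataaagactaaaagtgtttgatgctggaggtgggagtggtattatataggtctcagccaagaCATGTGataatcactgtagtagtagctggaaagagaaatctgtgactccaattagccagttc

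Each of the 3 windows held 2 matches to CATGTG, whose first bases lay 215 and 134 bases before the start in DCT, 144 and 11 in TYRP1, and 104 and 12 in TYR. The 6 letters occurred in 3897 of 35116 promoters of this length, or 11.1%. The longer TCATGTG, which contains them, occurred in 2.92% of promoters, with 2 matches in DCT, 1 in TYRP1 and 1 in TYR. A match is a description of the letters and not a measured site.

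DCT (chromosome 13, 94436811 to 94479682, minus strand) was at 8.79, 7.28 and 6.51 CPM in the chronic libraries 1 to 3 and at 1.53, 2.46 and 2.19 CPM in the acute libraries 4 to 6. Every chronic library lay above every acute library, and the vehicle libraries 7 and 8 lay below both groups at 1.25 and 1.37 CPM. The fold was 3.7 (log2 1.89 ± 0.22 SE, adjusted p = 0.0363, n = 3 and 3). TYRP1 (chromosome 9, 12685439 to 12710285, plus strand) was at 3.37, 5.77 and 3.37 CPM in chronic and at 0.882, 0.568 and 0.469 CPM in acute libraries. It rose 6.35-fold without overlap between the groups (log2 2.67 ± 0.35 SE, adjusted p = 0.0472). These levels rest on 59 to 80 counts in chronic and 9 to 19 counts in acute libraries. PMEL (chromosome 12, 55954105 to 55973317, minus strand) was at 4.04, 2.45 and 3.6 CPM in chronic and 0.511, 0.442 and 0.834 CPM in acute libraries, again without overlap. It rose 5.61-fold (log2 2.49 ± 0.33 SE, adjusted p = 0.0472). A gene was tested if at least 3 libraries reached 0.57 CPM before scaling. TYRP1 and PMEL reached it in all 3 chronic libraries but in 1 acute library each, so both entered the test through the group where they were high.

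**Figure D2:**
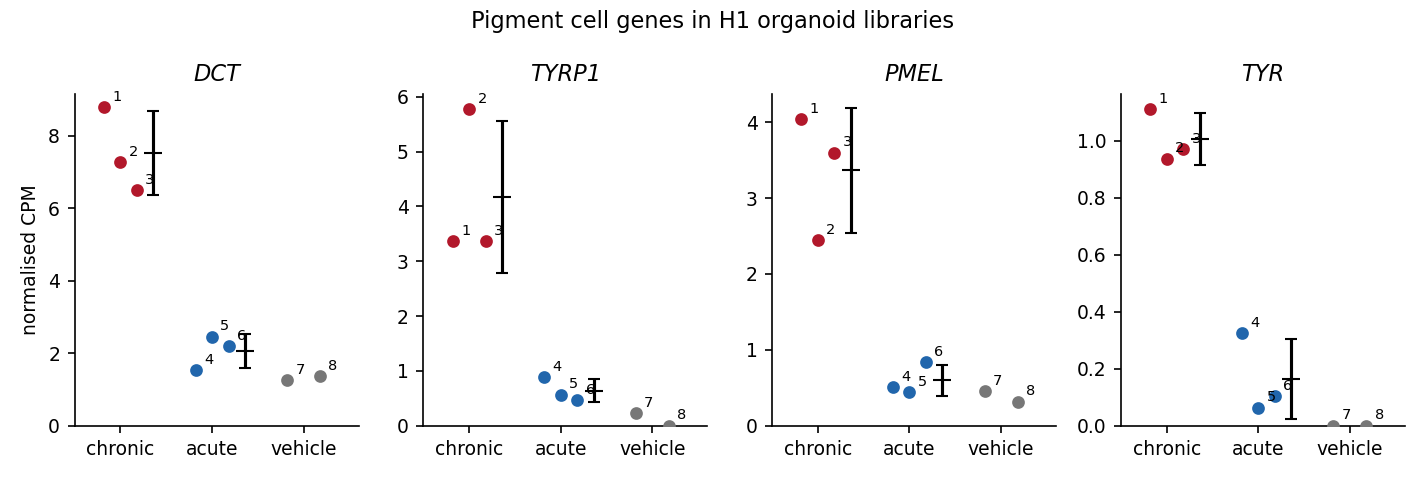
Normalised CPM of DCT, TYRP1, PMEL and TYR in the H1 libraries, numbered as in the labels, with the mean and SD of the 3 chronic and the 3 acute libraries as black bars. In each gene all 3 chronic libraries lie above all 3 acute libraries, and the 2 vehicle libraries lie at the bottom or among the acute ones; each panel has its own scale.

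TYR was at 1.11, 0.937 and 0.971 CPM in chronic and 0.325, 0.0631 and 0.104 CPM in acute libraries, and was listed at 0 in both vehicle libraries. The groups did not overlap, but TYR did not pass, and it too entered the test through its chronic libraries (log2 2.49 ± 0.51 SE, adjusted p = 0.213). MITF itself, the factor that drives these genes in pigment cells, lay at 2.21, 1.51 and 2.28 CPM in chronic and 2.55, 1.45 and 0.99 CPM in acute libraries, and the groups overlapped (log2 0.27 ± 0.36 SE, adjusted p = 0.825). Of the 13 genes of the pigment list 9 were tested and 3 passed. The 9 had positive values with a median log2 fold change of 0.59, while 50.2% of all genes were positive with a median of 7e-04. Because 4 of the 9 entered through their chronic libraries, that count supports no direction, and without library 6 it was 7 of 9. The median was 0.46 without library 1 and 1.7 without library 4. The summed level of the 13 genes was 31.7, 28 and 27.9 CPM in chronic, 17.9, 10.5 and 12 CPM in acute and 11.9 and 11 CPM in vehicle libraries. MLANA, another melanosome gene, was at 0.144 to 0.571 CPM in chronic and 0 to 0.139 CPM in acute libraries and was not tested. In bulk RNA, more cells of a type and more RNA per cell cannot be told apart. SOX10, which marks neural crest cells and their melanocytes as well as oligodendrocytes, was at 0 to 0.433 CPM in all 6 libraries, and its part in the pigment genes was not tested.

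LUZP2 (chromosome 11, 24496970 to 25082638, plus strand), a leucine zipper protein, was at 6.69, 7.5 and 7.65 CPM in chronic and 1.95, 2.9 and 2.24 CPM in acute libraries. It rose 3.11-fold (log2 1.64 ± 0.20 SE, adjusted p = 0.0363). TSHZ2 (chromosome 20, 52972358 to 53495330, plus strand), a zinc finger transcription factor of the teashirt family, was at 6.86, 5.91 and 7.54 CPM in chronic and 2.28, 2.59 and 2.35 CPM in acute libraries. It rose 2.84-fold (log2 1.51 ± 0.18 SE, adjusted p = 0.0363), and in both LUZP2 and TSHZ2 the groups did not overlap.

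Among genes with a mean log2 CPM of at least 1, the next by p did not pass. KCNH8, a voltage-gated potassium channel, was at 30.7, 26.9 and 29.4 CPM in chronic and 18.3, 18.9 and 18.3 CPM in acute libraries (log2 0.66 ± 0.09 SE, adjusted p = 0.062). COL1A1, a chain of type I collagen, was at 9.84, 9.66 and 19.4 CPM in chronic and 4.13, 2.97 and 3.02 CPM in acute libraries (log2 1.94 ± 0.29 SE, adjusted p = 0.0812). In both genes the groups lay apart. Below that level, BTBD11, described with the lines below, and ATP5J2-PTCD1 had smaller p (adjusted p = 0.0563 for both). ATP5J2-PTCD1 is a readthrough locus whose counts are uncertain, with 0 counts in each chronic and 23, 16 and 17 counts in the acute libraries. This locus thus entered the test through its acute libraries. PI15, the cGMP phosphodiesterase PDE5A, the adhesion molecule VCAM1 and the proteoglycan SPOCK2 had log2 values of 1.41, 1.2, 0.60 and 0.71, with adjusted p from 0.0983 to 0.135 and every chronic library above every acute one.

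KIAA0408 (chromosome 6, 127438406 to 127459389, minus strand) had 2 counts over the 3 chronic and 1129 over the 3 acute libraries. It was at 0, 0 and 0.114 CPM in chronic and 14.4, 36.1 and 12.9 CPM in acute libraries, and it fell (adjusted p = 0.0107). With 0 chronic and 3 acute libraries at the cutoff, it entered the test through the group where it was high. The ratio of acute to chronic was 494, with a 95% interval of 136 to 4080 that covers counting error only. The vehicle libraries were split in the same way, with 24.9 CPM in library 7 and 0 in library 8. KIAA0408 lies next to SOGA3 (chromosome 6, 127472806 to 127519335, same strand), with which it shares readthrough transcripts, so its counts are uncertain. The sum of SOGA3 and KIAA0408 was 496, 554 and 539 CPM in chronic and 569, 514 and 566 CPM in acute libraries, and these ranges overlapped.

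SMIM11B, a small membrane protein gene with a near-identical copy, SMIM11A, was at 3.76, 3.68 and 5.14 CPM in chronic and 10.6, 9.35 and 11 CPM in acute libraries. It fell by 1.29 on the log2 scale (± 0.17 SE, adjusted p = 0.0472). The copy SMIM11A was at 10.2, 11.2 and 12 CPM in chronic and 7.15, 7.14 and 5.94 CPM in acute libraries (log2 0.73 ± 0.14 SE, adjusted p = 0.21). The sum of both was 13.9, 14.9 and 17.1 CPM against 17.7, 16.5 and 17 CPM, so the groups overlapped once the copies were added. How the authors' counting divided reads between the copies is not stated.

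The lower side was otherwise made of genes that did not pass. NAV2, a neuron navigator, was at 85.9, 89.4 and 88.1 CPM in chronic and 130, 124 and 111 CPM in acute libraries (log2 -0.46 ± 0.08 SE, adjusted p = 0.159). ETV1, an ETS factor found in neurons of the deep cortical layers, was at 129, 156 and 143 CPM against 196, 196 and 190 CPM (log2 -0.44 ± 0.09 SE, adjusted p = 0.21). The groups lay apart in both genes. KLHL14, STUM, PPP2R2B, a regulatory subunit of protein phosphatase 2A, and PPEF1 had log2 values of -0.50, -0.34, -0.39 and -0.61. SMG1P1 is a pseudogene, LOC107986606 an unnamed locus, and BIVM-ERCC5 and ATP6V1G2-DDX39B are readthrough loci, so their counts are uncertain; their log2 values were -0.76, -1.16, -0.67 and -2.11. Adjusted p of these 8 ran from 0.21 to 0.214.

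Genes of dorsal and ventral forebrain lay on opposite sides, gene by gene without passing. Of 24 dorsal forebrain and glutamatergic genes, all tested, 23 had negative values and none passed, with a median log2 of -0.31. At an unadjusted p under 0.05, 16 were lower and 0 higher, beside 3.91% of all genes lower. In 14 of the 24 every chronic library lay below every acute library, beside 9.03% of all genes. DESeq2 called 6 of them lower, against 0.194% of all genes, and these 6 were EMX1, NEUROD6, TBR1, FEZF2, SLC17A7 and LHX2. Across 19 alternative settings, each library left out included, the median stayed between -0.37 and -0.26 with 0 to 3 positive members. The list was chosen with results of these libraries known, so its direction is a description.

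SLC17A7, the vesicular glutamate transporter of cortical neurons, was at 138, 158 and 155 CPM in chronic and 211, 257 and 185 CPM in acute libraries. Its groups lay apart (log2 -0.53 ± 0.12 SE, adjusted p = 0.221, and 0.0116 by DESeq2). FEZF2, which specifies subcortical projection neurons, was at 125, 149 and 143 CPM against 211, 280 and 165 CPM (log2 -0.64 ± 0.17 SE, adjusted p = 0.262). NEUROD6, a factor of differentiating cortical neurons, was at 558, 720 and 740 CPM against 961, 1070 and 845 CPM (log2 -0.51 ± 0.13 SE, adjusted p = 0.262). Both genes were lower in each chronic than in each acute library. EMX1 and LHX2, factors of the dorsal progenitor zone, had log2 values of -0.48 ± 0.11 and -0.32 ± 0.07 SE, and TBR1, of deep-layer neurons, -0.44 ± 0.12. EOMES, of intermediate progenitors, had -0.39 ± 0.10 without overlap, and NEUROD1 -0.50 ± 0.21 with overlapping groups. FEZF2, NEUROD6 and TBR1 were added after their values were seen.

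Of 32 ventral forebrain and GABAergic genes 29 were tested and none passed, and 26 had positive values with a median log2 of 0.76. At an unadjusted p under 0.05, 14 were higher and 0 lower, beside 5.71% of all genes higher. In 9 of the 29 every chronic library lay above every acute library, beside 8.72% of all genes. Of the 29, 3 entered the test through their chronic libraries and 0 through their acute libraries. The filter thus tilts these counts to positive values, and the direction of this list is a description. DESeq2 called 3 higher, against 0.543% of all genes, namely TAC1, SST and ERBB4. Of these, TAC1 and SST entered the test through their chronic libraries, and only ERBB4 met the filter in both groups. The median depended on single libraries: it was 0.50 without library 1 and 0.43 without library 4, with 24 and 23 positive members. The low acute library 4 is also the one with blood transcripts, and the part of those in the list was not tested.

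GAD1, the main GABA-synthesising enzyme, was at 72.4, 41.4 and 56.1 CPM in chronic and 14.3, 33.2 and 30.1 CPM in acute libraries, and at 10 and 3.47 CPM in the vehicle libraries. The groups did not overlap (log2 1.15 ± 0.29 SE, adjusted p = 0.253). SST and TAC1 entered the test through their chronic libraries. SST, the peptide somatostatin of one interneuron class, was at 2.21, 2.02 and 4.8 CPM against 0.372, 1.14 and 0.573 CPM (log2 2.17 ± 0.47 SE, adjusted p = 0.217). TAC1, the precursor of substance P made by striatal D1-class neurons, was at 2.99, 2.67 and 2.91 CPM against 0.511, 1.14 and 1.04 CPM (log2 1.70 ± 0.32 SE, adjusted p = 0.21). Neither peptide gene overlapped between groups. ERBB4, the neuregulin receptor of migrating interneurons, was at 18.9, 11.1 and 14.1 CPM against 7.06, 5.94 and 8.7 CPM (log2 1.03 ± 0.21 SE, adjusted p = 0.213). DLX1, which specifies GABAergic neurons, was at 162, 92 and 115 CPM against 30.7, 102 and 80.8 CPM, and its groups overlapped (log2 0.80 ± 0.36 SE, adjusted p = 0.519).

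**Figure D3:**
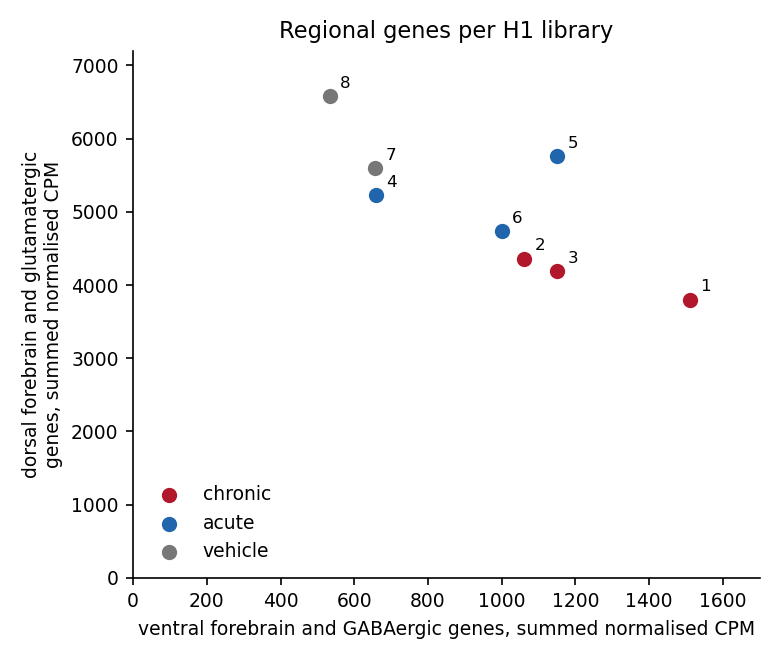
Summed normalised CPM of the dorsal list (vertical axis) against that of the ventral list (horizontal axis), 1 point per H1 library, numbered as in the labels. The chronic libraries lie lowest on the dorsal axis; on the ventral axis acute library 5 lies level with chronic library 3 and above chronic library 2.

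Summed over its members, the dorsal list was at 3800, 4360 and 4190 CPM in chronic, 5230, 5760 and 4740 CPM in acute and 5600 and 6580 CPM in vehicle libraries. The chronic libraries were the 3 lowest of these 8. The ventral list summed to 1510, 1060 and 1150 CPM in chronic, 659, 1150 and 1000 CPM in acute and 656 and 533 CPM in vehicle libraries. There the groups overlapped, since acute library 5 was level with chronic library 3 and above chronic library 2. In each of the 8 libraries the dorsal sum was above the ventral sum, although the protocol is a ventral forebrain one. The lists differ in their members, so the sums describe RNA levels and not shares of cells.

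The genes that receive the dopamine signal showed no call. Of 17 genes of dopamine receptors and striatal signalling 13 were tested, none passed, 9 were positive and the median log2 was 0.07, which ran from 0.03 without library 3 to 0.17 without library 2. DRD1, the main D1-class receptor, was at 1.49, 1.23 and 1.09 CPM in chronic and 0.697, 1.33 and 0.938 CPM in acute libraries (log2 0.39 ± 0.34 SE, adjusted p = 0.708). DRD2, of the D2 class, was at 1.99, 2.23 and 2.23 CPM against 1.95, 3.6 and 1.62 CPM (log2 -0.13 ± 0.32 SE, adjusted p = 0.919). DRD4, also of the D2 class, was at 1.05, 1.01 and 1.54 CPM against 0.929, 1.71 and 0.886 CPM (log2 0.07 ± 0.36 SE, adjusted p = 0.961). The groups overlapped for all 3 receptors. PPP1R1B, the phosphatase inhibitor DARPP-32 downstream of them, was at 25.2, 17.5 and 22 CPM against 23.7, 36.7 and 20.8 CPM, also overlapping (log2 -0.31 ± 0.21 SE, adjusted p = 0.637). PDE1B, a calcium-dependent phosphodiesterase of striatal neurons, was the member of smallest p, at 6.97, 7.07 and 7.43 CPM against 2.14, 3.09 and 4.22 CPM. Its groups lay apart (log2 1.19 ± 0.23 SE, adjusted p = 0.21, and 0.00441 by DESeq2). The G protein regulator RGS9 had a log2 value of 0.51 ± 0.32 SE.

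Of 19 genes of dopamine synthesis, transport and breakdown 10 were tested and none passed, with 6 positive and a median log2 of 0.03. The median turned negative under 4 of 19 alternative settings. TH, which makes the dopamine precursor L-DOPA, had 0 to 5 counts per library and was not tested. MAOA, which oxidises dopamine, was at 27.5, 26.2 and 27.1 CPM in chronic and 20.4, 18.4 and 27.8 CPM in acute libraries (log2 0.28 ± 0.15 SE, adjusted p = 0.556). Acute library 6 was the highest of the 6, so the groups overlapped. SLC18A2, which loads monoamines into vesicles, and SLC29A4, a low-affinity monoamine transporter, had log2 values of -0.32 ± 0.15 and -0.28 ± 0.14 SE without overlap.

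Immediate early genes are switched on by neurons soon after stimulation, and both groups had the final dose. Of 43 genes 40 were tested and none passed, with 13 positive and a median log2 of -0.10, or -0.05 without library 6. FOS was at 4.48, 5.7 and 4.8 CPM in chronic and 5.8, 4.61 and 4.69 CPM in acute libraries (log2 -0.02 ± 0.18 SE, adjusted p = 0.984). ARC, NR4A1 and EGR1 had log2 values of -0.06 ± 0.18, -0.12 ± 0.16 and 0.21 ± 0.19 SE, and in all 4 genes the groups overlapped. The vehicle libraries, at 5.19 and 4.79 CPM for FOS, lay within the same range. NR4A2, a nuclear receptor that is both an activity gene and a factor of dopamine and deep-layer cortical neurons, was at 52, 91.3 and 78.1 CPM against 144, 123 and 113 CPM. Its groups lay apart (log2 -0.77 ± 0.18 SE, adjusted p = 0.232, and 0.00604 by DESeq2). NPAS4, a factor specific to activity in neurons, was at 2.99, 3.97 and 4.4 CPM against 1.35, 2.72 and 2.14 CPM (log2 0.89 ± 0.29 SE, adjusted p = 0.376). KLF10 and RGS2 had log2 values of -0.37 ± 0.11 and -0.34 ± 0.12 SE.

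The series title ties the response to dopamine to reactive oxygen species, and NRF2 is the factor that turns on antioxidant genes. Of 30 NRF2 and antioxidant genes 29 were tested and none passed, with 12 positive and a median log2 of -0.04, which turned positive under 5 of 19 alternative settings. HMOX1, heme oxygenase, was at 3.1, 2.74 and 2.8 CPM in chronic and 2.04, 3.47 and 1.46 CPM in acute libraries (log2 0.33 ± 0.31 SE, adjusted p = 0.727). NQO1, a quinone reductase, was at 5.64, 5.91 and 6.17 CPM against 4.83, 4.74 and 5.42 CPM, without overlap (log2 0.25 ± 0.15 SE, adjusted p = 0.612). TXNIP, which inhibits thioredoxin, was at 490 to 516 CPM against 508 to 526 CPM (log2 -0.04 ± 0.07 SE, adjusted p = 0.894). SLC7A11, the cystine carrier that feeds glutathione synthesis, had a log2 value of 0.57 ± 0.23 SE (adjusted p = 0.471). Ascorbic acid, an antioxidant, was present in both groups.

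Lists of several other cell types had mostly positive values. Of 13 oligodendrocyte lineage genes 8 were tested, and 7 were positive with a median log2 of 0.75. Of the 8, 2 entered the test through their chronic libraries and 0 through their acute libraries. NKX2-2, a factor of the lineage that entered the test through its chronic libraries, was at 0.995, 1.08 and 1.71 CPM against 0.186, 0.316 and 0 CPM (log2 2.94 ± 0.63 SE, adjusted p = 0.213). OLIG1 and PDGFRA had log2 values of 0.96 ± 0.27 and 0.67 ± 0.20 SE, and the groups lay apart for OLIG1 but overlapped for PDGFRA. Of 18 mesenchyme and fibroblast genes 16 were tested, none passed and 13 were positive, with a median of 0.52 that was 0.31 without library 1. Of the 16, 3 entered through their chronic libraries and 0 through their acute libraries. The filter thus tilts the counts of both lists to positive values. COL1A2 was at 8.35, 6.42 and 14.6 CPM against 3.11, 2.02 and 3.49 CPM (log2 1.76 ± 0.32 SE, adjusted p = 0.194), and COL3A1 had a value of 1.65 ± 0.50 SE. Both collagen genes were higher in each chronic than in each acute library and highest in library 3.

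Of 19 tested cortical hem, Wnt and BMP genes 15 were positive with a median log2 of 0.41, which ran from 0.11 without library 6 to 0.68 without library 4. It was 0.21 without library 1, 0.17 without library 3 and 0.25 without library 5. ID1, a BMP target, was at 3.65, 3.53 and 3.48 CPM against 1.07, 1.71 and 1.04 CPM (log2 1.5 ± 0.26 SE, adjusted p = 0.159). WLS, which carries Wnt ligands to the surface, had a value of 0.90 ± 0.23 SE, also without overlap. Of 13 astrocyte genes 9 were positive with a median of 0.26, which was 0.11 without library 1 and 0.14 to 0.15 without library 4, 5 or 6. The gap junction protein GJA1 was at 50, 30.9 and 33.1 CPM against 16.1, 18.4 and 25.7 CPM (log2 0.93 ± 0.21 SE, adjusted p = 0.231). The water channel AQP4 overlapped between groups (log2 0.86 ± 0.40 SE). Cell cycle genes were spread around 0, with 16 of 28 positive and a median of 0.03. That count rested on single libraries, with 3 positive and a median of -0.09 without library 1 and 22 positive without library 2, 3 or 5. The proliferation marker MKI67 had a log2 value of -0.01 ± 0.17 SE (adjusted p = 0.987).

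**Figure D4:**
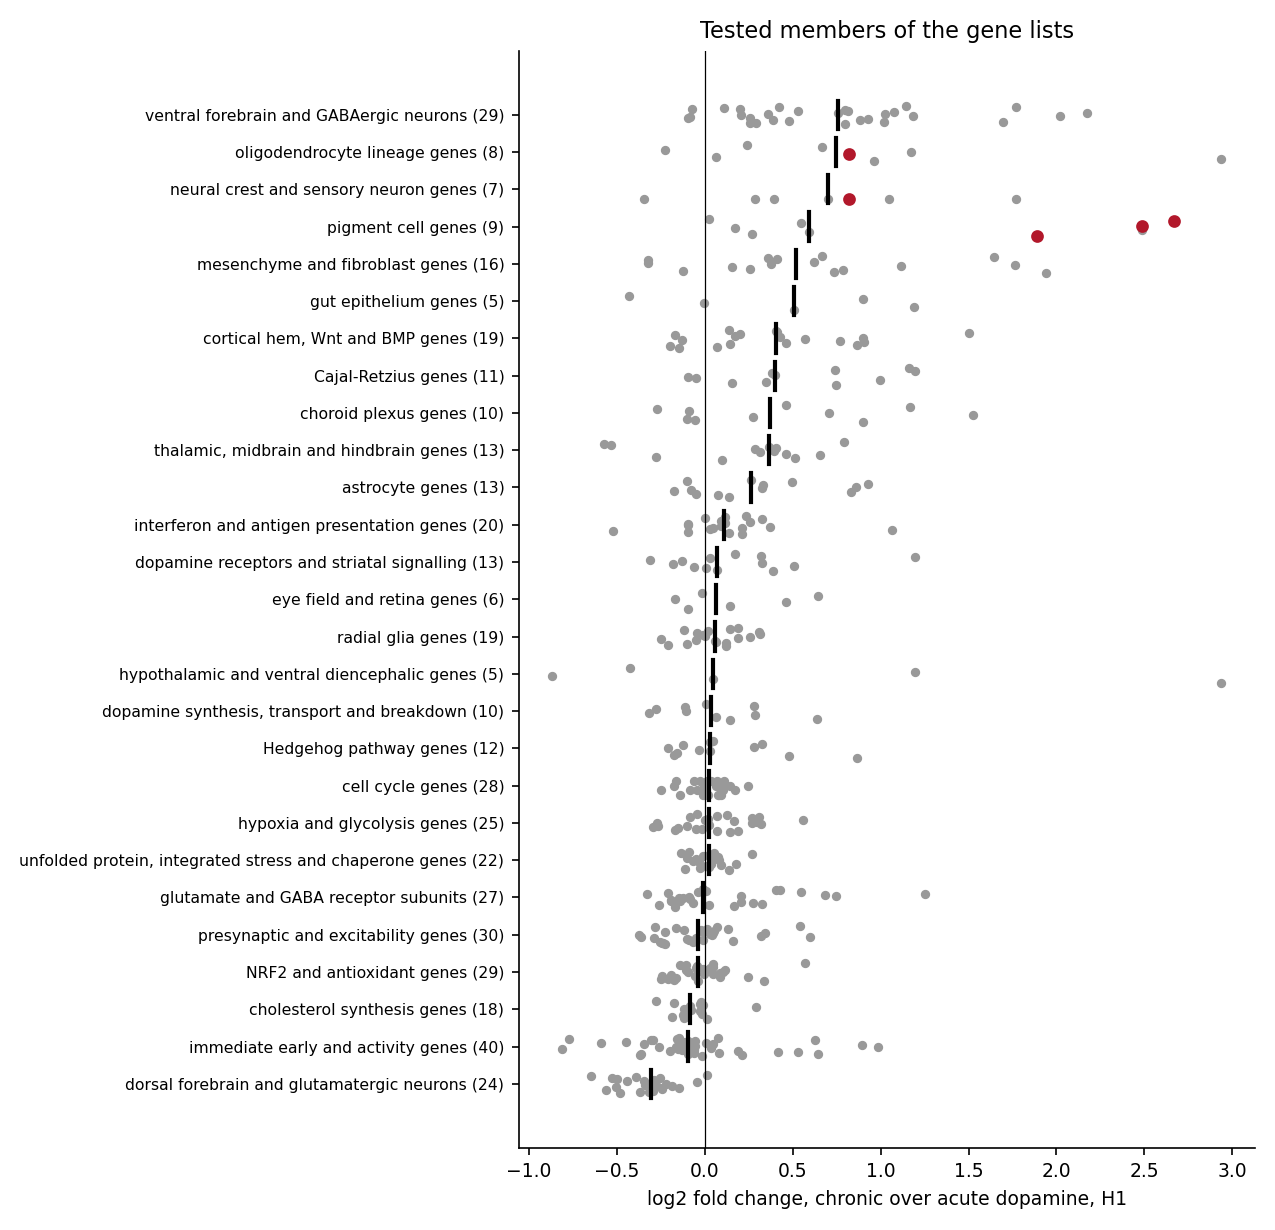
Log2 fold change of chronic over acute dopamine for the tested members of the 27 gene lists with at least 5 of them; the number tested follows each name, red points passed an adjusted p of 0.05 and black bars are medians. The dorsal list has the lowest median, -0.31, and the ventral list the highest, 0.76.

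The same comparison in H9 organoids (libraries 10 to 12 against 13 to 15, fitted with the H1 libraries) called 14 genes higher (0.0832%) and 132 lower (0.785%) of 16820 tested. The change differed between lines for 26 genes that were higher in H1 relative to H9 (0.155%) and 1 that was lower (0.00595%). ZIC2, KIAA0408, PCDHGB7 and BTBD11 had the smallest p. DCT was lower in level in H9, at 0.807 and 1.26 CPM in chronic and acute libraries (log2 -0.66, adjusted p = 0.38), and its difference of 2.54 passed (adjusted p = 0.0472). For TYRP1, with a log2 value of -0.43 in H9, and PMEL, with -1.44, the difference between lines missed the threshold (adjusted p = 0.111 and 0.0731).

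ZIC2, a zinc finger factor of the dorsal midline, differed through H9, where it fell by 5.83 on the log2 scale, from 5.38 to 0.0885 CPM. In H1 it was at 61.4, 54 and 46.9 CPM in chronic and 58.5, 67 and 44.9 CPM in acute libraries. PCDHGB7, a clustered protocadherin, fell by 1.59 in H9 and had a log2 value of 0.09 in H1. BTBD11 was at 2.16, 2.81 and 2.63 CPM in H1 chronic and 0.557, 0.695 and 0.521 CPM in H1 acute libraries (log2 2.10 ± 0.29 SE, adjusted p = 0.0563, entering through its chronic libraries), against -0.02 in H9. The dorsal list had a median of -0.78 in H9, with 1 of 24 positive and 9 lower by the test, beside 0.785% of all genes lower. Its members could lie near the floor in H9. EMX1 was at 0.0229 and 0.18 CPM in H9 chronic and acute libraries, against 72.7 and 102 CPM in H1. TBR1 was at 0.906 and 1.6 CPM in H9, against 379 and 517 CPM in H1. The ventral list had a median of 0.25 in H9 with 18 of 30 positive, and the test called 0 of them higher and 2 lower. NEUROD6 was at 0.816 and 4.3 CPM in H9 chronic and acute libraries and at 673 and 960 CPM in H1; it fell in H9 (log2 -2.41, adjusted p = 0.00274).

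**Figure D5:**
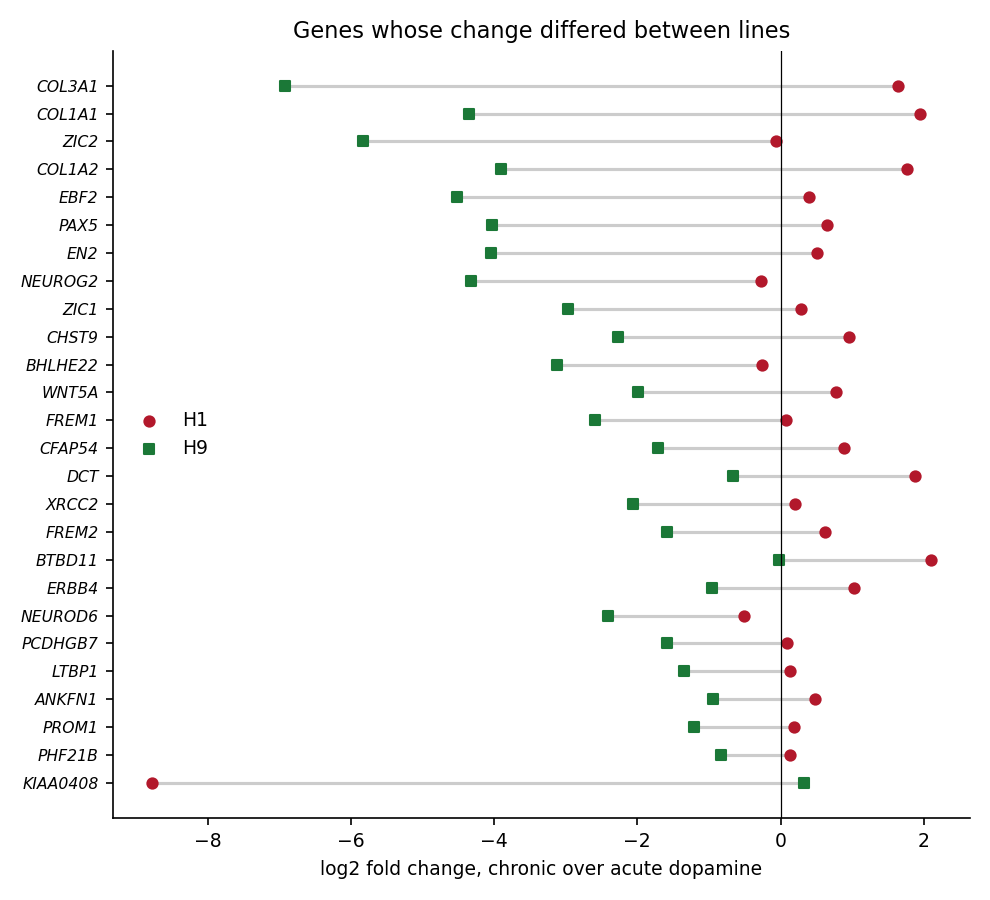
Log2 fold change of chronic over acute dopamine in H1 (red circles) and H9 (green squares) for 26 of the 27 genes whose change differed between lines at an adjusted p under 0.05, in order of the difference. In KIAA0408 the H1 value lies far to the left of the H9 value, and in the other genes drawn it lies to the right.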

How the data were processed

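RNA was measured in 18 poly(A) libraries, grouped per the labels, and 6 H1 libraries are compared here. The deposited tables hold the authors' unnormalised read counts by gene symbol and, for the same symbols, TPM, used here in an alternative test only. Both GRCh38 and hg38 appear as builds in the submitters' processing notes. The aligner, counter and gene annotation were not given in the sources used here. Library preparation was strand-specific, per the labels, but whether counting used strand is not stated.

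Genes passing filterByExpr of edgeR 4.0.16 in R 4.3.3 were scaled by TMM and tested by quasi-likelihood F tests in the 6 libraries. A fit of 12 dopamine libraries of both lines gave the H9 values and the line differences. Calls needed a Benjamini-Hochberg adjusted p below 0.05. The standard error is the log2 value divided by the square root of F. Of 53853 symbols 28 had become dates and were kept without a name. The tests were also run on counts simulated from the levels and spread of the libraries in each fit.

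The members and gene lists were chosen with earlier results of these data known. The rule names up to 12 genes in each direction with a mean log2 CPM of at least 1, those of smallest p filling up where fewer passed, up to 4 members per list, 22 genes given always and 5 genes for the line difference; some that it selects are not reported here. MITF, TTR, SOGA3, SMIM11A, ZIC1, ATP5J2-PTCD1, NKX2-1, SOX10, MLANA, HBB, FEZF2, NEUROD6 and TBR1 were added after their values were seen, and TYR, COL3A1, ZIC2 and BTBD11, which the rule also selects, had been singled out in the same way. Alternatives were other scalings and filters, DESeq2 1.42.0, limma 3.58.1 (log2 TPM with a pseudocount of 1 or 0.1, and voom), glmTreat, other library sets, a threshold of 0.1 and each library left out. Positions are from GENCODE release 44 on GRCh38. SMIM11B, SMIM11A, KIAA0408 and readthrough loci share sequence with neighbours or copies. Intervals cover counting error only.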

Additional observations from a re-analysis of the deposited data

Results flagged for a closer look

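Results are given here because the test of the difference between the H1 and H9 lines passed (12-library fit, edgeR adjusted p under 0.05), as the log2 change in H1 minus that in H9. For the pigment cell gene DCT it was 2.54 and for the interneuron receptor ERBB4 1.99. ERBB4 fell in H9 (log2 -0.96, edgeR adjusted p = 0.0454) and was not called in H1. The collagen genes gave 6.29 (COL1A1), 5.66 (COL1A2) and 8.56 (COL3A1), with opposite signs in the lines: the H9 values were -4.35, -3.90 and -6.92. COL1A1 was at 1.16 ± 0.0985 CPM in H9 chronic and 23.8 ± 24.4 CPM in H9 acute libraries (SD, n = 3 each), so its acute libraries differed widely. COL1A2 and COL3A1 were at 18.4 ± 16.4 and 27.2 ± 18.7 CPM in H9 acute libraries. In H9 chronic libraries COL3A1 lay near the floor, at 0.216 ± 0.161 CPM. COL1A1, COL1A2 and COL3A1 were not called in H1 (edgeR adjusted p = 0.0812, 0.194 and 0.346). The dorsal midline factors ZIC2 and ZIC1 gave 5.77 and 3.25, and the Wnt ligand WNT5A 2.76. ZIC2, ZIC1 and WNT5A fell in H9 by the test (log2 -5.83, -2.97 and -1.99). None of them was called in H1 (log2 -0.06, 0.28 and 0.77). The protocadherin PCDHGB7 gave 1.68, BTBD11 2.12 and the cortical neuron factor NEUROD6 1.90. NEUROD6 had negative values in both lines (log2 -0.51 in H1 and -2.41 in H9). KIAA0408, whose counts are uncertain, gave -9.10.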

How the results depend on the processing

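The 8 genes called kept their sign under all 20 alternatives, but the number of calls moved. The genes called moved too. In 17 libraries 8 genes were called higher, but only 1 of the 8 genes of the main test was still called. All 18 libraries kept 5 of them, and voom kept 0. Genes higher numbered 105 with no filter on low counts, 10 at a threshold of 0.1, 84 by DESeq2, 2 in fits of 12 or of 8 libraries, 20 in all 18 libraries and 0 by limma on TPM, by voom and by glmTreat. Genes lower numbered 37 with no filter, 30 by DESeq2, 0 by limma at a pseudocount of 1 and in 17 libraries, and 1 by limma at 0.1, voom, glmTreat and fits of 12 or 8 libraries. Leaving out 1 library gave 0 to 3 higher and 0 to 1 lower. In H9 the counts were 59 and 300 with no filter, 188 and 399 by DESeq2, 38 and 216 in 17 libraries, and with 1 library left out 2 to 34 higher and 41 to 133 lower. For the line difference they were 211 and 23 with no filter, 268 and 71 by DESeq2, 105 and 12 in 17 libraries, and with 1 library left out 8 to 100 and 1 to 12. The causes were not tested.

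Of 80 named genes tested, 9 near 0 changed sign in H1. By limma at a pseudocount of 1 and of 0.1, FOS was 0.0425 and 0.0479, TXNIP 0.0177 at both, MKI67 0.0282 and 0.0287, and ZIC2 0.00062 and 0.00080. With upper-quartile scaling FOS was 0.00047 and MKI67 0.0056. With 1 library left out, FOS ranged from -0.12 to 0.10, MKI67 from -0.22 to 0.14, ZIC2 from -0.20 to 0.068, DRD2 from -0.34 to 0.27, DRD4 from -0.16 to 0.41, NR4A1 from -0.26 to 0.0076, ARC from -0.15 to 0.041 and MITF from -0.00165 to 0.74. The 12 differences between lines given here kept their sign; 140 of their alternative values still passed and 52 no longer did. No paired analysis was possible because the library numbers in the labels run from 1 to 18 and no groups share one.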

Other observations

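Receptor and synaptic genes had no shared direction. Of 27 tested glutamate and GABA receptor subunits 13 were positive (median log2 -0.01, which turned positive under 6 of 19 alternative settings). The AMPA receptor subunit GRIA4 was at 15.9, 13.9 and 15.4 CPM in chronic and 7.15, 9.98 and 10.1 CPM in acute libraries (log2 0.75 ± 0.15 SE, adjusted p = 0.213, and 0.014 by DESeq2). The GABA receptor subunits GABRB1 and GABRG1 had log2 values of 0.43 ± 0.10 and 1.25 ± 0.31 SE, and like GRIA4 they did not overlap between groups. Of 30 presynaptic and excitability genes 12 were positive (median -0.04, which turned positive under 2 of 19). SNAP25, a SNARE protein of synaptic vesicle release, was at 248, 309 and 307 CPM against 377, 391 and 358 CPM (log2 -0.38 ± 0.10 SE, adjusted p = 0.27). The sodium channel SCN1A was at 11.7, 11 and 11.5 CPM against 7.38, 7.83 and 8.44 CPM (log2 0.54 ± 0.12 SE, adjusted p = 0.229), so these 2 genes stood on opposite sides, each without overlap.

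Of 18 cholesterol synthesis genes 16 were negative, with a median log2 of -0.09 and none past the threshold. Without library 4 the list had 6 positive members and a median of -0.04, and by limma on TPM 7 positive and -0.03. Hypoxia and glycolysis genes (15 of 25 positive, median 0.03) and genes of the unfolded protein and chaperone response (13 of 22 positive, median 0.02) were spread around 0, and each median turned negative with 1 library left out, library 3 for the first and library 1 for the second.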
